A study of Homo sapiens with 21 samples.

Results

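The comparison set 3 libraries of wild type MV4-11 cells exposed to ironomycin for 24 h against 3 libraries of wild type MV4-11 cells given DMSO, 6 of the 21 libraries of the series. MV4-11 is a human biphenotypic B myelomonocytic leukaemia line that carries a KMT2A rearrangement, and ironomycin, labelled AM5, is a synthetic derivative of the polyether ionophore salinomycin. Messenger RNA was read at its 3′ ends, and every gene with enough counts was compared. The other libraries, 3 in each group, were wild type cells at 6 h of ironomycin, and HK2 knockout and PGP knockout cells at 24 h of ironomycin or in DMSO. No exposure time is labelled for DMSO, so the same DMSO libraries stand against both times. All cells are from 1 cell line, and the labels call the samples of a group replicates without saying that they came from separate cultures. The p-values therefore rest on the spread between such samples, which may be technical. That spread was estimated over all 21 libraries, so a library outside the comparison can change whether a gene is called.

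Ironomycin collects in lysosomes and holds iron there, and the study addressed the loss of mitochondrial iron and the cell death that follows through BAX and BAK1, the proteins that open the outer mitochondrial membrane. Iron is built into the iron-sulfur clusters and heme of the respiratory chain, and it is a cofactor of ribonucleotide reductase, which makes the building blocks of DNA. Stress on mitochondria is relayed to the transcription factors ATF4, ATF5 and CHOP, and low sterol in the endoplasmic reticulum releases the SREBP factors that switch on sterol enzymes.

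The 6 libraries held between 4802795 and 6069264 counts, and the median over the series was 4823817. Levels are given below as CPM, counts scaled to a common library size after TMM normalization, in the order of replicates 1, 2 and 3, and a fold change is the log2 of ironomycin over DMSO with its standard error (SE). A call is an edgeR quasi-likelihood test with a Benjamini-Hochberg adjusted p under 0.05 over the 11610 genes tested. A count of 3 in a library, the limit that a count of 0 allows, was worth between 0.494 and 0.625 CPM, and such limits cover counting error only. On the first principal component of all 21 libraries, which held 40.4% of the variance, the ironomycin 24 h libraries lay between -34.8 and -32, and the DMSO libraries lay between 30.8 and 37.5. On the second component 1 library of the 6 h group stood apart at -71.7. The number of genes called against 6 h is given with and without it, and so are some results against DMSO. The 6 h levels and medians and the list counts against 6 h include it and were not repeated without it.

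The line's identity markers were present in both groups. FLT3, a growth factor receptor of leukaemic blasts, had 302, 344 and 395 CPM with ironomycin and 269, 273 and 318 CPM in DMSO. HOXA9 and MEIS1, homeobox genes driven by KMT2A fusions, and the myeloid surface receptor CD33 were detected in all 6 libraries, with differences of 0.15 ± 0.14, 0.00 ± 0.16 and 0.02 ± 0.10 on the log2 scale that did not pass the test. LYZ and CD14, markers of mature monocytes, were near 0, at 2 and 17 counts for LYZ and 1 and 1 count for CD14 over the ironomycin and DMSO groups. Of 11 T and NK cell markers 2 passed the count filter, of 14 erythroid and megakaryocyte markers 1, and of 14 fibroblast, endothelial and epithelial markers 1, while MS4A1, CD3G, HBA1, HBA2 and EPCAM were at 0 in all 6 libraries. The NK cell granule gene NKG7 and the keratin KRT8 were called higher, KRT8 not without ironomycin replicate 2 or 3 or DMSO replicate 1 or 3, and the part of other cells in the results was not tested. The summed level of the T and NK list was 99.3 to 144 CPM with ironomycin and 79.5 to 102 CPM in DMSO. Most of it was NCAM1, with 109, 89.5 and 64.9 CPM against 85.6, 90.2 and 66.3 CPM. NCAM1 was not called, at 0.12 ± 0.16. The sum of the fibroblast, endothelial and epithelial list was 9.04 to 11.1 CPM with ironomycin and 5.22 to 6.68 CPM in DMSO.

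The response at 24 h was broad. Of 11610 genes tested, 3465 were called (29.8%), 1775 of them higher with ironomycin (15.3%) and 1690 lower (14.6%). These percentages, taken over genes of all levels, are the background for every count below. The share called lower rose with level, from 3.36% under 5 CPM to 30.9% at 100 to 500 CPM and 35.7% over 500 CPM. For lists of abundant genes 14.6% is therefore a low background. Without any test, the 3 ironomycin values of 5411 genes (46.6%) did not overlap the 3 DMSO values. The median log2 fold change over all genes was 0.03.

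Rises were the larger changes and falls touched the more abundant mRNAs. A called change of at least 2-fold was reached by 9.66% of the genes tested, 755 higher (6.5%) and 366 lower (3.15%), and an 8-fold change by 75 and 3. Among genes called higher the median log2 fold change was 0.89 and the median level 21.9 CPM, and among genes called lower they were -0.65 and 60.4 CPM. Of the 2499 genes under 5 CPM, 13.1% were called higher and 3.36% lower, with a median SE of 0.44. Of the 263 genes over 500 CPM, 14.8% were called higher and 35.7% lower, with a median SE of 0.12. Genes called lower held 19.5% ± 0.415 of all counts in the ironomycin libraries and 31.8% ± 0.448 in the DMSO libraries (SD, n = 3 each), and genes called higher held 20.3% ± 0.314 and 12.2% ± 0.0676.

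**Figure D1:**
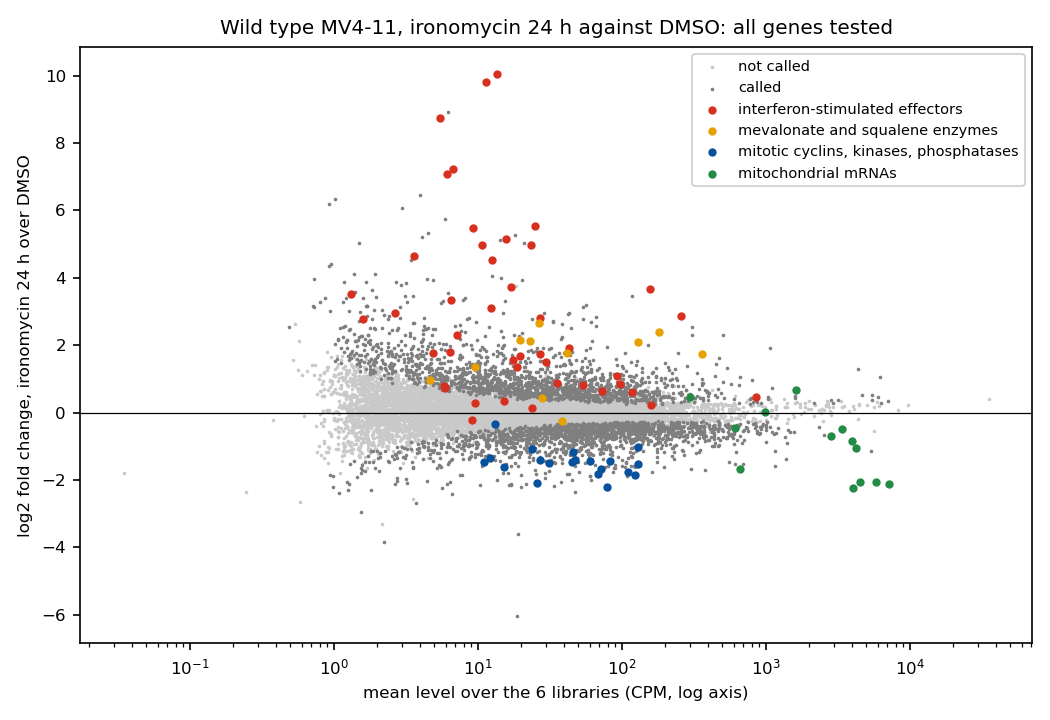
Log2 fold change of ironomycin 24 h over DMSO (vertical) against mean CPM on a log axis (horizontal) for the 11610 genes tested; each point is a gene, with interferon effectors, mevalonate enzymes, mitotic kinases and mRNAs of the mitochondrial chromosome coloured. The largest rises are interferon effectors at low mean CPM, with fitted values that depend on the prior count where DMSO had almost no counts, and the falls run through the abundant end of the axis.

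The transcript classes differed in their balance. Protein-coding genes numbered 10139, with 16.1% called higher and 15.9% lower. Long noncoding genes numbered 751, with 99 called higher and 41 lower. MALAT1, an abundant RNA kept in the nucleus, took 0.617%, 0.565% and 0.757% of counts in the ironomycin libraries and 0.198%, 0.238% and 0.325% in the DMSO libraries. NEAT1, which scaffolds nuclear paraspeckles, rose as well, by 1.16 ± 0.18 (edgeR adjusted p = 3.9e-05). The part of MALAT1's share in the other results was not tested.

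Interferon-stimulated genes held most of the largest rises. Interferons act through the kinases JAK1 and TYK2 and factors that include STAT2 and IRF9, which bind the interferon-stimulated response element (ISRE) in front of antiviral genes. Of 44 effectors tested, 37 were called higher and none lower, 31 of them by at least 2-fold, against a background of 15.3% higher and 14.6% lower. The 44 include effectors with no or almost no counts in DMSO, such as IFI44L, IFI27, SIGLEC1 and IFIT1. These could pass the count filter only through other libraries, so they could only be called higher. The median log2 fold change of the 44, these included, was 2.10. Their promoters are shown because the letters of the ISRE core, searched on both strands, recur in them. Of the 39 effector promoters found in RefSeq (GRCh38.p14, 250 bases before to 50 after the start), 26 held a match (66.7%), against 2.84% of the 8703 promoters of tested genes. The windows below are from effectors among the 15 largest rises, with 1 match per promoter in capitals, read on the gene's own strand; IFI44L at chr1:78620269-78620308, IFI27 at chr14:94110613-94110652, IFIT1 at chr10:89392492-89392531, EPSTI1 at chr13:42992267-42992306 and DDX60 at chr4:168318816-168318855. EPSTI1 and DDX60 lie on the minus strand.
IFI44L: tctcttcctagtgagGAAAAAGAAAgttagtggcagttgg
IFI27: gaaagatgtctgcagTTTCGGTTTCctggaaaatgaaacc
IFIT1: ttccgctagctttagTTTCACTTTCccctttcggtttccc
EPSTI1: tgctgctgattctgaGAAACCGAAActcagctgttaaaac
DDX60: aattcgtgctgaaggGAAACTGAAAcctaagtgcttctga
The letters in capitals are the core as written in IFI44L, EPSTI1 and DDX60 and the core of the opposite strand in IFI27 and IFIT1. All but EPSTI1 held 2 matches in the promoter, and the second match of IFI27 and of IFIT1 lies in the window shown, in lower case.

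The effectors differed in their level in DMSO. XAF1, a partner of the caspase inhibitor XIAP, had 581, 403 and 390 CPM with ironomycin against 58.7, 59.9 and 68.8 CPM in DMSO (log2 fold change 2.87 ± 0.19, edgeR adjusted p = 5.2e-10). IFI6, a small membrane protein of the endoplasmic reticulum and mitochondria, had 463, 192 and 214 CPM against 23.2, 19.2 and 25.7 CPM (3.67 ± 0.41, adjusted p = 6.0e-07). IFIT3, of a family that binds viral RNA, had 61.6, 50 and 36.4 CPM against 1.46, 0.417 and 1.16 CPM (5.55 ± 0.64). No ironomycin value of these genes overlapped a DMSO value, and replicate 1 of the ironomycin group was the highest in each.

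Several effectors had no or almost no counts in DMSO. IFI44L had 48.5, 11.1 and 22 CPM with ironomycin, 405 counts in all, against no count in any DMSO library, at least 140-fold higher when 3 counts over the DMSO group are taken as its limit. On the same limit IFI27 was at least 118-fold higher and SIGLEC1, a sialic acid receptor of activated monocytes, at least 56.3-fold. KLHDC7B, which is not on the effector list, was at least 64.6-fold higher. IFIT1 had 202 counts with ironomycin and 1 in DMSO, a ratio of 209 with an exact 95% interval from 37.2 to 8310. Replicate 1 of the ironomycin group held much of the signal of several effectors: SIGLEC1 had 24 CPM there and 3.37 and 5.64 CPM in the other libraries. Without that replicate ISG15, a ubiquitin-like modifier, fell to a log2 fold change of 2.23, against 2.92 ± 0.42 with it, and OAS2, a sensor enzyme of double-stranded RNA, to 4.35, against 4.98 ± 0.60.

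Part of the signalling genes upstream rose too. STAT2 had 64.9, 67.6 and 59.7 CPM with ironomycin against 10, 14.2 and 15.9 CPM in DMSO (2.25 ± 0.16, edgeR adjusted p = 1.3e-09), and its partner IRF9 had 9.24, 6.15 and 8.55 CPM against 1.46, 1.88 and 1.49 CPM (2.30 ± 0.39). The groups did not overlap for either gene. Of 21 receptor, JAK, STAT and IRF genes 11 were called higher and none lower, with a median of 0.49. The receptor chains IFNAR1 and IFNAR2 were not called, at 0.09 ± 0.15 and -0.14 ± 0.16.

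The sensors of foreign nucleic acid showed 9 of 16 members higher and 2 lower. IFI16, a DNA sensor, had 90.4, 56.7 and 53.1 CPM with ironomycin against 9.81, 12.5 and 9.79 CPM in DMSO (2.64 ± 0.26, edgeR adjusted p = 1.0e-07). EIF2AK2, the kinase PKR that binds double-stranded RNA, had 247, 116 and 127 CPM against 48.9, 48.6 and 47.3 CPM (1.76 ± 0.32). RNASEH2A, which clears RNA-DNA hybrids and also serves replication, had 69.2, 70.8 and 59.3 CPM against 129, 146 and 135 CPM (-1.04 ± 0.14). The interferon genes themselves gave no level to compare: of the 22 type I, II and III interferon genes in the table none passed the count filter, and 21, IFNB1 among them, were at 0 in all 6 libraries.

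Antigen presentation and inflammatory genes moved in part. Of 19 class I pathway genes 7 were called higher and 2 lower, with a median of 0.41. NF-kB feedback genes showed 9 of 17 higher and none lower, with a median of 0.91. BCL3, an atypical IkB protein, had 39.4, 50 and 58.7 CPM with ironomycin against 12.7, 11.7 and 15.1 CPM in DMSO (1.90 ± 0.25, edgeR adjusted p = 4.0e-06). The chemokine CCL2 had 54.4, 33.1 and 37.9 CPM against 5.22, 2.92 and 9.79 CPM (2.77 ± 0.46). CXCL10, a chemokine that interferon induces, had 176 counts with ironomycin and 3 in DMSO, a ratio of 60.8 with an exact 95% interval from 20.5 to 298. TNF was called higher by 0.76 ± 0.24, with an adjusted p of 0.0171 that moved to 0.126 without ironomycin replicate 3 and to 0.0855 without DMSO replicate 2. Of 13 inflammasome and pyroptosis genes 5 were called higher and 1 lower. P2RX7, an ATP-gated channel upstream of inflammasomes, had 47.9, 55.5 and 50 CPM against 5.64, 8.56 and 5.64 CPM (2.96 ± 0.21, adjusted p = 1.1e-09), and GSDME, a gasdermin that caspase-3 can cut into a pore, had 8.01, 7.34 and 6.8 CPM against 0.835, 1.25 and 0.995 CPM (2.82 ± 0.37). All ironomycin values of the genes called higher and named in this paragraph lay above all DMSO values. CASP1, the caspase that inflammasomes activate, was the 1 called lower, at -0.69 ± 0.18, and the sensor NLRP3 and the adaptor PYCARD were not called, at -0.04 ± 0.17 and -0.10 ± 0.19.

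**Figure D2:**
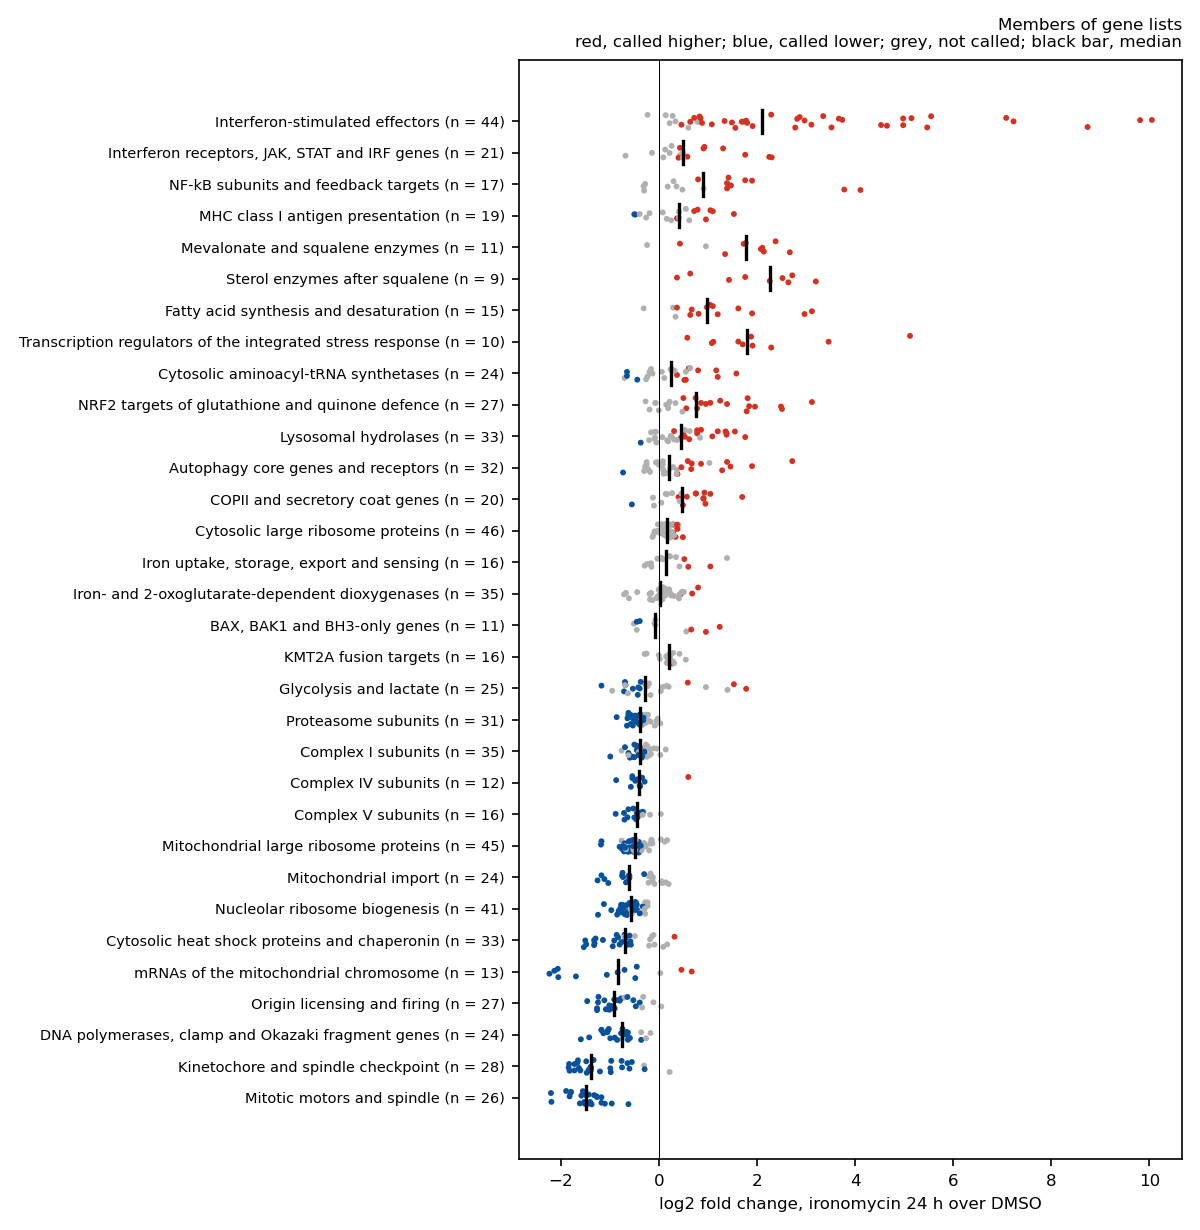
Log2 fold change of ironomycin 24 h over DMSO (horizontal) for the tested members of 32 gene lists (rows, n tested in brackets); each point is a gene, red where called higher, blue where called lower and grey where not called, and a black bar marks the median. Interferon effectors, sterol enzymes and regulators of the integrated stress response lie to the right with medians from 1.77 to 2.26, and the mitotic lists lie to the left with medians of -1.38 and -1.48.

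Mitotic genes fell together. Cells need cyclin B1 with CDK1 to enter mitosis, polo and Aurora kinases to build the spindle, and kinetochores to hold the chromosomes. Of 20 mitotic cyclins, kinases and phosphatases 19 were called lower, of 28 kinetochore and checkpoint genes 26, and of 26 motors and spindle genes all 26, against a background of 14.6%, and none of the 74 was called higher. Their medians were -1.47, -1.38 and -1.48. In a bulk culture fewer cells in mitosis and less of these mRNAs per cell cannot be told apart.

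The promoters of these genes share short elements. The cell cycle homology region (CHR), TTTGAA on either strand, was found in 39 of the 64 mitotic promoters in RefSeq (60.9%), against 9.79% of promoters of tested genes, and a CCAAT box was found in 47 of the 64 (73.4%), against 37.5%. Windows from some of the strongest falls are shown with 1 CHR per promoter in capitals; PLK1 lies at chr16:23678845-23678880 and BUB1B at chr15:40161031-40161066 on the plus strand, and DLGAP5 at chr14:55191562-55191597 and SPC25 at chr2:168890413-168890448 on the minus strand.
PLK1: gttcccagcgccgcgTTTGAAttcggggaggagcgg
BUB1B: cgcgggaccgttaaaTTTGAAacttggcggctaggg
DLGAP5: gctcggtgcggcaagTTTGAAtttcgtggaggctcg
SPC25: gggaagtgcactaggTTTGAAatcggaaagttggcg
A match is a description of the letters and does not show binding.

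CCNB1, cyclin B1, had 22.2, 32.3 and 29.9 CPM with ironomycin against 133, 120 and 140 CPM in DMSO (-2.21 ± 0.15, edgeR adjusted p = 7.1e-10). PLK1, polo-like kinase 1, had 9.24, 10.9 and 9.53 CPM against 43.9, 42.4 and 40.1 CPM (-2.09 ± 0.19, adjusted p = 2.5e-08). AURKA had 52.8, 56.1 and 51.5 CPM against 221, 197 and 163 CPM (-1.85 ± 0.16). The DMSO and ironomycin values of these 3 genes were far apart and did not overlap. CDC20, which activates the anaphase-promoting complex, fell by 2.26 ± 0.23 on the log2 scale, while 7 of 18 genes of that complex and its partners were called lower and 1 higher. Kinetochore genes followed: CENPE had 58.8, 52.6 and 58.5 CPM against 210, 208 and 185 CPM (-1.83 ± 0.14). Among spindle genes the tubulin-binding protein STMN1 had 360, 374 and 350 CPM against 1070, 1040 and 1000 CPM (-1.52 ± 0.10). TUBB, a beta-tubulin, had 782, 718 and 784 CPM against 2190, 1870 and 1910 CPM (-1.38 ± 0.12), and TUBA1A, an alpha-tubulin with close relatives whose reads may be shared, had 25.1, 35.3 and 30.9 CPM against 13.2, 15.2 and 16.4 CPM (1.02 ± 0.25).

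DNA replication genes fell by less. Of 27 genes of origin licensing and firing 22 were called lower, of 24 polymerase, clamp and Okazaki fragment genes 20, and of 23 homologous recombination and Fanconi genes 17, with medians of -0.91, -0.76 and -0.85. MCM7, a subunit of the replicative helicase, had 180, 160 and 142 CPM with ironomycin against 394, 387 and 374 CPM in DMSO (-1.26 ± 0.11, edgeR adjusted p = 2.3e-08). TOP2A, which untangles DNA before division, had 614, 541 and 583 CPM against 1810, 1880 and 1540 CPM (-1.59 ± 0.14). In the supply of deoxynucleotides 7 of 12 genes were called lower and 2 higher. RRM1, the large subunit of the iron-dependent ribonucleotide reductase, had 250, 206 and 188 CPM against 514, 482 and 443 CPM (-1.16 ± 0.12), and TYMS, which makes thymidylate, had 63.5, 52.4 and 66.9 CPM against 180, 169 and 208 CPM (-1.61 ± 0.20). TK2, the mitochondrial thymidine kinase, was among the 2 called higher, at 1.19. The DMSO and ironomycin values of the named genes did not overlap.

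The G1 machinery moved in both directions. Of 12 G1 cyclins, CDKs and inhibitors 2 were called higher and 3 lower, with a median of -0.02. CDK2 had 64.9, 44.4 and 45.7 CPM with ironomycin against 108, 101 and 90.6 CPM in DMSO (-0.95 ± 0.16), and the inhibitor CDKN2D had 60.6, 66.4 and 50.7 CPM against 40.7, 35.7 and 36.5 CPM (0.66 ± 0.14). CDKN1A, the p53 target p21, was not called, at 0.14 ± 0.15 (edgeR adjusted p = 0.534). Of 27 p53 target genes 5 were called higher and 6 lower, with a median of -0.25. SESN2, a stress-induced brake on mTORC1, was among the 5, at 1.85 ± 0.18, and DDB2, a DNA damage binding protein, fell the most of the 6 that passed, by 1.27 ± 0.22 on the log2 scale.

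Sterol synthesis rose as a pathway. SREBP2 switches these genes on when membranes of the endoplasmic reticulum run short of sterol, and INSIG1 holds SREBP2 back as part of the feedback. Of 11 mevalonate and squalene enzymes 9 were called higher, and of 9 enzymes after squalene all 9, with medians of 1.77 and 2.26 and none lower. INSIG1 had 438, 542 and 551 CPM with ironomycin against 113, 92.7 and 104 CPM in DMSO (2.31 ± 0.27, edgeR adjusted p = 8.4e-07). SQLE, which makes squalene epoxide, had 283, 335 and 296 CPM against 61.8, 57.2 and 57.1 CPM (2.38 ± 0.16, adjusted p = 6.5e-10). Further down the path LSS, the enzyme that closes the sterol rings, had 50.9, 68 and 55.6 CPM against 9.61, 8.77 and 8.13 CPM (2.72 ± 0.19). Every ironomycin value of these genes was above every DMSO value.

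Most called genes of sterol uptake and fatty acid synthesis were higher too. Of 12 genes of sterol uptake, trafficking, storage and efflux 7 were called higher and 1 lower, with a median of 0.67. The 1 called lower was ABCA1, which exports sterol and had 1.64, 0.793 and 1.75 CPM with ironomycin against 1.46, 5.22 and 6.47 CPM in DMSO (-1.66 ± 0.48, edgeR adjusted p = 0.0109). Its groups overlapped, and its adjusted p was 0.0592 without ironomycin replicate 2 and 0.0887 without DMSO replicate 3. SREBF2 itself rose by 1.01 ± 0.12, 1 of 2 called higher among 13 SREBP regulators. Of 15 genes of fatty acid synthesis and desaturation 12 were called higher and none lower, with a median of 0.98, and SCD, which makes oleate, had 609, 880 and 667 CPM against 236, 218 and 249 CPM (1.62 ± 0.23). Of 17 fatty acid oxidation genes 1 was called, and it was lower. The count of lower calls was 5 without the 6 h library that stood apart, and 0 without ironomycin replicate 2 or DMSO replicate 1. The sterol element core TCACNCCAC was in none of the 29 sterol gene promoters in RefSeq, against 1% of promoters of tested genes, which says only that these letters are not in the windows searched.

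**Figure D3:**
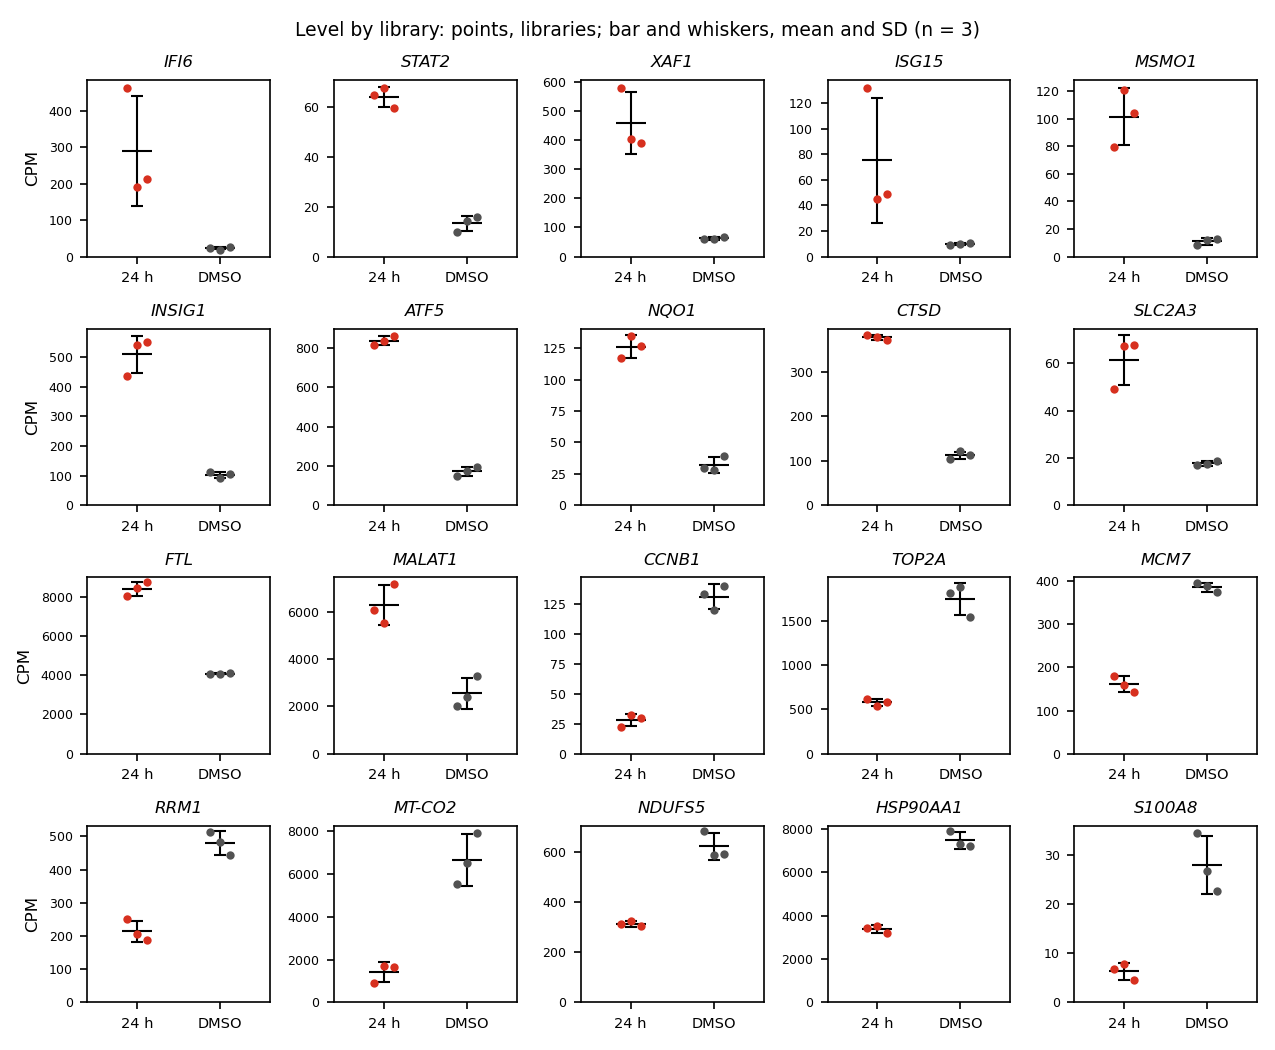
CPM (vertical, a separate linear scale in each panel) of 20 genes in the 3 ironomycin 24 h libraries (left in each panel) and the 3 DMSO libraries (right); points are libraries, and the bar and whiskers give the mean and SD. In IFI6 and ISG15 replicate 1 of the ironomycin group lies above the other ironomycin libraries (463 and 132 CPM), while FTL, CTSD and NDUFS5 show tight groups that do not overlap.

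Transcripts of the mitochondrial chromosome fell in share and split by gene. The 13 mRNAs took 1.78%, 2.67% and 2.64% of counts with ironomycin and 5.01%, 5.26% and 6.88% in DMSO. The exact two-sided permutation p was 0.1, the smallest that 3 libraries against 3 allow. MT-CO2, a subunit of cytochrome c oxidase, had 896, 1690 and 1660 CPM against 5510, 6530 and 7890 CPM (-2.23 ± 0.25, edgeR adjusted p = 4.4e-07). MT-ND3, MT-CO3 and MT-ATP6 fell by 2.06, 2.13 and 2.05 on the log2 scale. MT-CO1 differed by 0.03 ± 0.14 and was not called, and MT-ND5 and MT-ND6 were called higher, at 0.67 ± 0.14 and 0.46 ± 0.14, with MT-ND6 uncertain because it lies opposite other mitochondrial genes and the counting is not stated to use strand. In all 10 were called lower and 2 higher. Of the 9 mitochondrial transfer and ribosomal RNAs tested 4 were called higher and 2 lower. MT-TL1, which carries leucine, had 524, 514 and 536 CPM against 97.9, 98.9 and 74.1 CPM (2.54 ± 0.23), and MT-TF had 2050, 1490 and 1520 CPM against 538, 409 and 403 CPM (1.91 ± 0.22). The groups of both genes were separate. The libraries read the 3′ ends of mRNA, and whether reads at transfer RNA genes come from mature transfer RNAs was not tested. MT-TP and MT-TY, which lie on the opposite strand to most mitochondrial mRNAs, were called lower, at -1.11 ± 0.14 and -1.35 ± 0.26. Both are uncertain, since the counting is not stated to use strand. The ribosomal RNAs MT-RNR1 and MT-RNR2 were not called, at 0.07 ± 0.12 and 0.39 ± 0.18.

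Nuclear genes of the respiratory chain fell by small amounts. Of 35 complex I subunits 19 were called lower, of 9 complex III genes 8, of 12 complex IV subunits 11 and of 16 complex V subunits 12, with medians from -0.53 to -0.39, and of 4 complex II subunits 1. COX7A2L, which helps join complexes III and IV, was the only one of these called higher, at 0.60. The complex I count dropped to 12 without ironomycin replicate 3 and the complex IV count to 7 without ironomycin replicate 1. NDUFS5, an accessory complex I subunit, had 312, 327 and 304 CPM with ironomycin against 686, 590 and 593 CPM in DMSO (-0.99 ± 0.11, edgeR adjusted p = 4.2e-07). COX7B, of complex IV, had 219, 259 and 227 CPM against 440, 431 and 412 CPM (-0.87 ± 0.12). Their groups were separate, as were those of 23 of the 35 complex I subunits, against 46.6% of all genes tested.

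Mitochondrial upkeep genes fell by similar amounts. Of 72 mitochondrial ribosome proteins 37 were called lower (23 of the large and 14 of the small subunit), of 24 import genes 13 and of 25 genes of mitochondrial transcription and RNA handling 12, and none of these was called higher. TIMM10, an import chaperone, had 97.8, 120 and 109 CPM with ironomycin against 262, 240 and 233 CPM in DMSO (-1.17 ± 0.13, edgeR adjusted p = 6.5e-07). TFAM, which packs and transcribes the mitochondrial chromosome, had 112, 93 and 91.4 CPM against 169, 177 and 167 CPM (-0.79 ± 0.16). LONP1, a matrix protease, was called higher, with 116, 96.8 and 93.7 CPM against 62.6, 52 and 55.7 CPM (0.85 ± 0.14). Of 28 genes of pyruvate entry and the tricarboxylic acid cycle 8 were called lower and 3 higher.

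Iron-sulfur cluster genes changed little. Of 28 assembly genes 7 were called lower and none higher, with a median of -0.23. CIAPIN1, of the cytosolic branch, had 38, 39.5 and 36.9 CPM with ironomycin against 65.2, 66.8 and 69.2 CPM in DMSO (-0.81 ± 0.11, edgeR adjusted p = 3.7e-06), and GLRX5, which hands clusters on in mitochondria, had 118, 116 and 118 CPM against 171, 164 and 170 CPM (-0.52 ± 0.11). ABCB10 and FDXR, an inner membrane transporter and ferredoxin reductase, fell by 1.25 ± 0.31 and 0.91 ± 0.22. Of 8 mitochondrial iron carriers and storage genes 1 was called higher and 2 lower, with a median of -0.17. SLC25A37, mitoferrin 1, the carrier that brings iron into mitochondria, was called higher, with 171, 181 and 184 CPM against 112, 113 and 114 CPM (0.66 ± 0.09, adjusted p = 1.4e-05). The serine carrier SFXN1 and the iron-sulfur protein CISD1 of the outer membrane were called lower, at -0.59 ± 0.14 and -0.30 ± 0.10, and CISD1 lost its call without ironomycin replicate 1 or 3 or without DMSO replicate 3.

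Cellular iron genes gave few calls. Of 16 genes of iron uptake, storage, export and sensing 3 were called higher and none lower. FTL, the ferritin light chain, had 8040, 8420 and 8740 CPM with ironomycin against 4050, 4050 and 4100 CPM in DMSO (1.05 ± 0.10, edgeR adjusted p = 1.1e-07). ACO1, whose protein is an iron sensor when it lacks its cluster, had 25.3, 25.2 and 25.1 CPM against 16.7, 14.8 and 18.1 CPM (0.60 ± 0.16, adjusted p = 0.00568). TFRC, the transferrin receptor, had 462, 615 and 528 CPM against 489, 436 and 449 CPM and was not called (0.22 ± 0.16, adjusted p = 0.31), and its groups overlapped. The third call, of the iron transporter SLC11A2 at 0.52 ± 0.18, had adjusted p-values from 0.0805 to 0.0973 without ironomycin replicate 1 or 3 or without DMSO replicate 1 or 3. FTH1, the ferritin heavy chain, had only 33 and 1 counts over the groups and was not tested. Copies with near-identical ends may share its reads, so its level is uncertain. NCOA4, which delivers ferritin to lysosomes, and the iron exporter SLC40A1 are listed at 0 in all 6 libraries.

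Heme and oxygen-sensing genes were mixed. Of 17 heme genes 3 were called higher and 3 lower, near the 15.3% and 14.6% of all genes. Of the 3 lower, HMOX2 (-0.35, edgeR adjusted p = 0.047) lost its call without any 1 of the 6 libraries. PGRMC1 (-0.63) lost its call without ironomycin replicate 1 or without DMSO replicate 1 or 3. ALAS1, the first enzyme of heme synthesis, had 58.8, 55.3 and 68.6 CPM with ironomycin against 21.7, 25.9 and 32.8 CPM in DMSO (1.18 ± 0.21, edgeR adjusted p = 1.5e-04), and HMOX1, which breaks heme down, was not called (-0.07 ± 0.75, adjusted p = 0.956). Of 35 iron- and 2-oxoglutarate-dependent dioxygenases 3 were called, all higher, with a median of 0.03: the histone demethylases KDM4B at 0.68 ± 0.14, KDM6B at 0.80 ± 0.19 and KDM3A at 0.45 ± 0.16. KDM3A lost its call in 5 of the 6 fits that left out 1 library each, with adjusted p-values from 0.0606 to 0.209. With the compared groups fitted alone 5 dioxygenases were called higher. Of 20 hypoxia targets 10 were called higher and 3 lower. The growth factor VEGFA had 98.4, 105 and 114 CPM against 14.2, 11.5 and 23.2 CPM (2.68 ± 0.27, adjusted p = 1.0e-07), and the glucose carrier SLC2A3 had 49.1, 67.2 and 67.8 CPM against 17.1, 17.3 and 18.9 CPM (1.78 ± 0.15). The hypoxia target LDHA went down, with 386, 407 and 362 CPM against 872, 789 and 930 CPM (-1.17 ± 0.17).

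Glycolysis genes were more often lower than higher. Of 25 glycolysis and lactate genes 9 were called lower and 3 higher, with a median of -0.29, and PGK1 and TPI1 fell by 0.69 ± 0.12 and 0.71 ± 0.11. HK2 and PGP were not called in wild type cells, at -0.23 ± 0.27 and -0.20 ± 0.12. In the pentose phosphate path PGD had 311, 307 and 283 CPM with ironomycin against 129, 130 and 120 CPM in DMSO (1.25 ± 0.11, edgeR adjusted p = 1.3e-08). Nucleotide synthesis fell: of 16 purine genes 11 were called lower and 2 higher, and of 11 pyrimidine genes 5 were called lower and none higher. PFAS, of purine synthesis, had 37.4, 32.7 and 30.5 CPM against 70.6, 76.4 and 68 CPM (-1.09 ± 0.14).

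The integrated stress response was higher throughout its regulators. All 10 transcription regulators tested were called higher, with a median of 1.80. NUPR1, a small stress factor, had 27.9, 28.6 and 26.6 CPM with ironomycin against 0.835, 1.04 and 0.498 CPM in DMSO (5.12 ± 0.34, edgeR adjusted p = 5.2e-10). ATF5, linked to mitochondrial stress, had 813, 836 and 862 CPM against 146, 173 and 195 CPM (2.29 ± 0.15, adjusted p = 6.5e-10). DDIT3, which encodes CHOP, had 22.6, 22.6 and 23.7 CPM against 6.06, 7.93 and 6.97 CPM (1.71 ± 0.21). The values of each gene were tight within ironomycin and did not overlap DMSO. ATF4, which is mainly controlled by translation, rose by 1.08 ± 0.18.

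The targets of this response split by branch. Serine and one-carbon genes gave 7 of 16 higher and 4 lower: ALDH1L2 of the mitochondrial branch had 55.3, 47.8 and 49.4 CPM with ironomycin against 10.6, 14.4 and 14.9 CPM in DMSO (1.92 ± 0.20), while MTHFD1 of the cytosolic branch had 100, 98.4 and 100 CPM against 182, 177 and 168 CPM (-0.82 ± 0.10). Cytosolic aminoacyl-tRNA synthetases gave 8 of 24 higher and 3 lower, and mitochondrial ones 6 of 20 lower and none higher. The cytosolic count was 13 with the compared groups fitted alone, and the mitochondrial count was 3 without ironomycin replicate 2 or without DMSO replicate 1. CHAC1, which degrades glutathione, had 39.2, 87.5 and 61.2 CPM against 6.68, 14.8 and 19.6 CPM (2.17 ± 0.45, edgeR adjusted p = 7.6e-04). All 4 stress-secreted hormones were called higher: ADM2 had 27.5, 28.8 and 29 CPM against 3.13, 2.3 and 2.99 CPM (3.32 ± 0.30), and GDF15 had 120 counts against 3, a ratio of 41.5 with an exact 95% interval from 13.9 to 204.

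The C/EBP-ATF element, TGATGNAA on either strand, is the site of ATF4 with its C/EBP partners. It was in 17 of 85 promoters of these stress lists (20%), against 1.68% of promoters of tested genes. Windows from 4 targets are shown with the element in capitals; CHAC1 lies at chr15:40953247-40953284 on the plus strand, and CARS1 at chr11:3057403-3057440, AARS1 at chr16:70289671-70289708 and ASNS at chr7:97872454-97872491 lie on the minus strand.
CHAC1: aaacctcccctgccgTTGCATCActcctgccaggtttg
CARS1: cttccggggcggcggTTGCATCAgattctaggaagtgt
AARS1: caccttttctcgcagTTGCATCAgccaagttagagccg
ASNS: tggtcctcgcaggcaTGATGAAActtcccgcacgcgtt
CHAC1, CARS1 and AARS1 carry the element on the opposite strand and ASNS carries it as written. CARS1 rose by 1.20 ± 0.12, AARS1 by 1.17 ± 0.17 and ASNS by 1.13 ± 0.24.

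Redox genes rose mainly through the NRF2 targets. Of 27 tested 16 were called higher and none lower, with a median of 0.75. NQO1, a quinone reductase, had 117, 135 and 127 CPM with ironomycin against 29.7, 27.8 and 39.5 CPM in DMSO (1.96 ± 0.17, edgeR adjusted p = 1.3e-08). AKR1C2 and AKR1C3, whose near-identical sequences may share reads, were at 2.51 ± 0.34 and 2.49 ± 0.34. Peroxiredoxins, superoxide dismutases and catalase gave 2 of 18 higher and 4 lower: PRDX5 was at 0.96 ± 0.15 and PRDX4 fell by 0.93 ± 0.13. Of 16 ferroptosis genes 5 were called higher and 2 lower, and 8 higher and 4 lower without the 6 h library that stood apart. SLC7A11, the cystine carrier, had 62.7, 64.5 and 83.6 CPM against 8.14, 18.8 and 32.8 CPM (1.79 ± 0.36).

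Lysosome and autophagy genes rose in part. Of 33 lysosomal hydrolases 15 were called higher and 1 lower, of 15 V-ATPase subunits 4 higher, and of 18 lysosomal membrane and TFEB family genes 10 higher. CTSD, cathepsin D, had 383, 380 and 372 CPM with ironomycin against 104, 121 and 112 CPM in DMSO (1.76 ± 0.16, edgeR adjusted p = 2.0e-08). ASAH1, acid ceramidase, had 144, 145 and 143 CPM against 50.5, 65.7 and 50.1 CPM (1.38 ± 0.11), and ATP6V0A1, of the proton pump, had 43.3, 39.3 and 37.3 CPM against 16.3, 12.7 and 12.6 CPM (1.53 ± 0.16). Of 32 autophagy genes 11 were called higher and 1 lower. MAP1LC3B, which coats autophagosomes, had 73.7, 72 and 77.8 CPM against 30.1, 26.9 and 34.2 CPM (1.29 ± 0.14). The groups of these genes did not overlap, and the E-box CACGTG, which TFEB proteins bind, was in 14 of 51 lysosome promoters (27.5%), against 10.7% of promoters of tested genes.

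BAX and BAK1 were not called, and some of the BH3-only genes that act on them were higher. BAX had 19.1, 14.9 and 19.1 CPM with ironomycin against 26.3, 28.2 and 18.2 CPM in DMSO and was not called (-0.45 ± 0.19, edgeR adjusted p = 0.0772). It passed without DMSO replicate 3, at -0.64 with an adjusted p of 0.019. It also passed without the 6 h library that stood apart, at -0.45 with an adjusted p of 0.0494. BAK1 had 9.86, 11.1 and 12.8 CPM against 11.9, 13.1 and 11.1 CPM (-0.09 ± 0.22, adjusted p = 0.795). Both overlapped between groups, and the protein was not measured. Of 11 genes of the BAX and BH3-only list 3 were called higher, the killers BBC3 (PUMA) at 0.66 ± 0.14, PMAIP1 (NOXA) at 0.96 ± 0.21 and BMF at 1.24 ± 0.30, and 2 lower, VDAC1 and BID at -0.45 ± 0.12 and -0.39 ± 0.13. BID had an adjusted p of 0.0666 without ironomycin replicate 1. PMAIP1 had 68.2, 52.2 and 57 CPM against 29.9, 28.4 and 32.7 CPM. BCL2L11 (BIM) had 52, 46.4 and 49.8 CPM against 31.5, 31.1 and 37.3 CPM, without overlap. It was not called (0.56 ± 0.27, edgeR adjusted p = 0.121). It passed with the compared groups fitted alone (adjusted p = 0.00254), without the 6 h library that stood apart (0.00465) and without the filter (0.0122).

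Of 11 survival genes 4 were called higher and 1 lower. BCL2L2, a relative of BCL2, was at 1.03 ± 0.36, and the caspase and NF-kB regulators BIRC2 and XIAP were at 0.46 ± 0.14 and 0.38 ± 0.11. BIRC3, of the same family, had 56 counts with ironomycin and 3 in DMSO, a ratio of 19.4 with an exact 95% interval from 6.29 to 96.7. The count of higher calls was 1 without ironomycin replicate 3 and 2 without ironomycin replicate 2 or DMSO replicate 1. BCL2L2 lost its call in 5 of the 6 fits that left out 1 library each, BIRC2 in 3 and XIAP in 2. BCL2 and MCL1 were not called, at 0.23 and -0.18 with adjusted p-values of 0.167 and 0.423. BIRC5, survivin, which also serves chromosome segregation, had 11.7, 9.12 and 13 CPM with ironomycin against 41.3, 34.4 and 43.8 CPM in DMSO (-1.82 ± 0.17, edgeR adjusted p = 3.4e-08). Of 14 caspase and apoptosome genes 6 were called lower and 2 higher, but only 2 were lower without ironomycin replicate 3 and 3 without DMSO replicate 2. CYCS, cytochrome c, had 159, 161 and 166 CPM against 285, 246 and 312 CPM (-0.79 ± 0.14). The deubiquitinase CYLD, which limits survival signals from death receptors, rose by 0.93 ± 0.11.

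Ribosome assembly genes fell, and no ribosome protein mRNA was called lower. Of 41 nucleolar genes 32 were called lower and none higher, with a median of -0.57, and UTP20, of the small subunit processome, had 21.4, 23.8 and 26.2 CPM with ironomycin against 57.8, 54.1 and 57.2 CPM in DMSO (-1.24 ± 0.12, edgeR adjusted p = 6.8e-08). Of 77 cytosolic ribosome proteins 10 were called higher and none lower, with medians of 0.17 and 0.19 for the large and small subunits. The large subunit count of 6 was 3 without ironomycin replicate 2, and the small subunit count of 4 was 0 without DMSO replicate 2 and 1 without any other of the libraries except DMSO replicate 1. With the compared groups fitted alone the counts were 10 and 8, and the small subunit count was 8 without the 6 h library that stood apart. MYC did not pass, at 0.08 ± 0.37 (adjusted p = 0.904), and its antagonist MXD1 had 32, 38.7 and 43.2 CPM against 10.2, 9.39 and 12.6 CPM (1.81 ± 0.22).

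Of 33 cytosolic heat shock and chaperonin genes 23 were called lower and 1 higher. HSP90AA1, an inducible HSP90, had 3440, 3540 and 3180 CPM with ironomycin against 7890, 7290 and 7190 CPM in DMSO (-1.14 ± 0.10, edgeR adjusted p = 1.7e-08), and HSPH1, another heat shock protein gene, fell by 1.53 ± 0.12. Proteasome subunits fell in 21 of 31, with a median of -0.39. Of 30 genes of the unfolded protein response of the endoplasmic reticulum 7 were called higher and none lower (12 with the compared groups fitted alone), and of 20 COPII and coat genes 11 were called higher and 1 lower. SEC24D, a cargo adaptor of COPII vesicles, had 70, 65.5 and 65.5 CPM against 19.8, 21.7 and 20.2 CPM (1.70 ± 0.13, adjusted p = 2.9e-09). No ironomycin value of these 3 genes lay within the DMSO range.

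The smallest adjusted p of all genes belonged to TSC22D3, the leucine zipper protein GILZ, which glucocorticoids and FOXO factors induce. It had 91.6, 151 and 107 CPM with ironomycin against 16.1, 18.2 and 15.1 CPM in DMSO (2.83 ± 0.16, edgeR adjusted p = 2.5e-10). FBXO32, FOXO3 and PIK3IP1, of the TSC22 and FOXO list, were called higher, at 1.63 ± 0.23, 0.91 ± 0.14 and 1.21 ± 0.34. KLF2, also called higher, had 40 counts against 2, a ratio of 20.7 with an exact 95% interval from 5.38 to 177. IL7R, another FOXO target, was called lower, with 55.9, 37.1 and 26.8 CPM against 164, 95.2 and 103 CPM (-1.60 ± 0.27). SESN3 was called lower too, at -1.09 ± 0.35, and the other tested members were not called. PIK3IP1 lost its call in 2 alternative fits and SESN3 in 4. Among feedback phosphatases of MAPK signalling, DUSP5 had 8.63, 11.9 and 10.7 CPM against 2.09, 0.417 and 0.663 CPM (3.30 ± 0.50), and its fold change was 4.16 without DMSO replicate 1.

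Lineage markers were called in both directions. Of 16 KMT2A fusion targets 1 was called, PBX3 at 0.27 ± 0.10 (edgeR adjusted p = 0.0499), and its call was lost without any 1 of the 6 libraries. With the compared groups fitted alone 4 were called higher and 1 lower, and without the 6 h library that stood apart 3 were called higher. Among 25 myelomonocytic markers 8 were called higher (32%) and 5 lower (20%), against 15.3% and 14.6% of all genes. S100A8, a calcium-binding alarmin of neutrophils and monocytes, had 6.78, 7.74 and 4.47 CPM with ironomycin against 34.5, 26.9 and 22.7 CPM in DMSO (-2.14 ± 0.33, adjusted p = 3.1e-05), and MPO, myeloperoxidase, fell by 1.18 ± 0.25. S100P, another S100 gene, and ORM1 were among the 15 largest rises. Their log2 fold changes ran from 4.74 to 5.23 and from 4.78 to 5.74 over 12 alternative fits. TYROBP, a signalling adaptor, had 478, 491 and 469 CPM against 278, 235 and 211 CPM (0.99 ± 0.15). Of the 18 B-lymphoid genes 3 were tested: IGLL1, the surrogate light chain, had 3.49, 2.78 and 2.33 CPM against 25.5, 52.2 and 28.5 CPM (-3.61 ± 0.37, adjusted p = 1.3e-07), and PAX5 had 8.22, 4.76 and 4.08 CPM against 0.626, 2.09 and 1.49 CPM (1.99 ± 0.44). The largest fitted fall of all, GAPDHP1 at -6.05 ± 1.59, is a pseudogene of GAPDH whose reads may belong to other copies. In the 6 h group it had 0, 88.4 and 20.2 CPM, and its level is uncertain.

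The 24 h libraries were also set against the 3 wild type libraries at 6 h, a comparison that shares its ironomycin libraries with the one above. There 1922 of 11610 genes were called (16.6%), 984 higher at 24 h (8.48%) and 938 lower (8.08%), and 30.3% of genes had an unadjusted p under 0.05. Fitting those 2 groups alone gave 749 calls, leaving out ironomycin 24 h replicate 3 gave 1271, and leaving out the 6 h library that stood apart gave 1600.

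Interferon effectors, sterol enzymes, NRF2 targets and mitotic genes had small medians at 6 h and larger ones at 24 h. At 6 h against DMSO the medians of interferon effectors, mevalonate enzymes, later sterol enzymes and NRF2 targets were 0.33, 0.08, 0.24 and 0.15, and 35 of 44, 9 of 11, 9 of 9 and 13 of 27 were called higher at 24 h than at 6 h. The 35 effectors include IFI44L, EPSTI1, IFI27 and SIGLEC1, which had almost no counts at 6 h and could only be called higher. IFI6 had 16.4, 27.3 and 23.2 CPM at 6 h, and each of its 24 h values was higher. The mitotic kinase list had a median of -0.09 at 6 h, and 16 of its 20 members, 24 of 28 kinetochore genes and 25 of 26 spindle genes were called lower at 24 h than at 6 h. FTL had 4280, 5530 and 4820 CPM at 6 h, and rose by a further 0.78 ± 0.10 (edgeR adjusted p = 1.3e-05).

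The integrated stress response was already high at 6 h, with a median of 2.24 over its 10 regulators. DDIT3 had 40.8, 57.8 and 64.3 CPM at 6 h, and its 24 h level was lower than that by 1.24 ± 0.18 on the log2 scale (edgeR adjusted p = 5.2e-05). Nucleolar genes and NF-kB feedback genes had 6 h medians of -0.52 and 0.72, close to those at 24 h. The transfer RNA gene MT-TL1 had 2090, 3560 and 1480 CPM at 6 h, more than at 24 h. Endoplasmic reticulum stress genes had a median of -0.18 at 6 h and 0.30 at 24 h, and 16 of 30 were called higher at 24 h than at 6 h, CRELD2 by 1.41 ± 0.15.

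**Figure D4:**
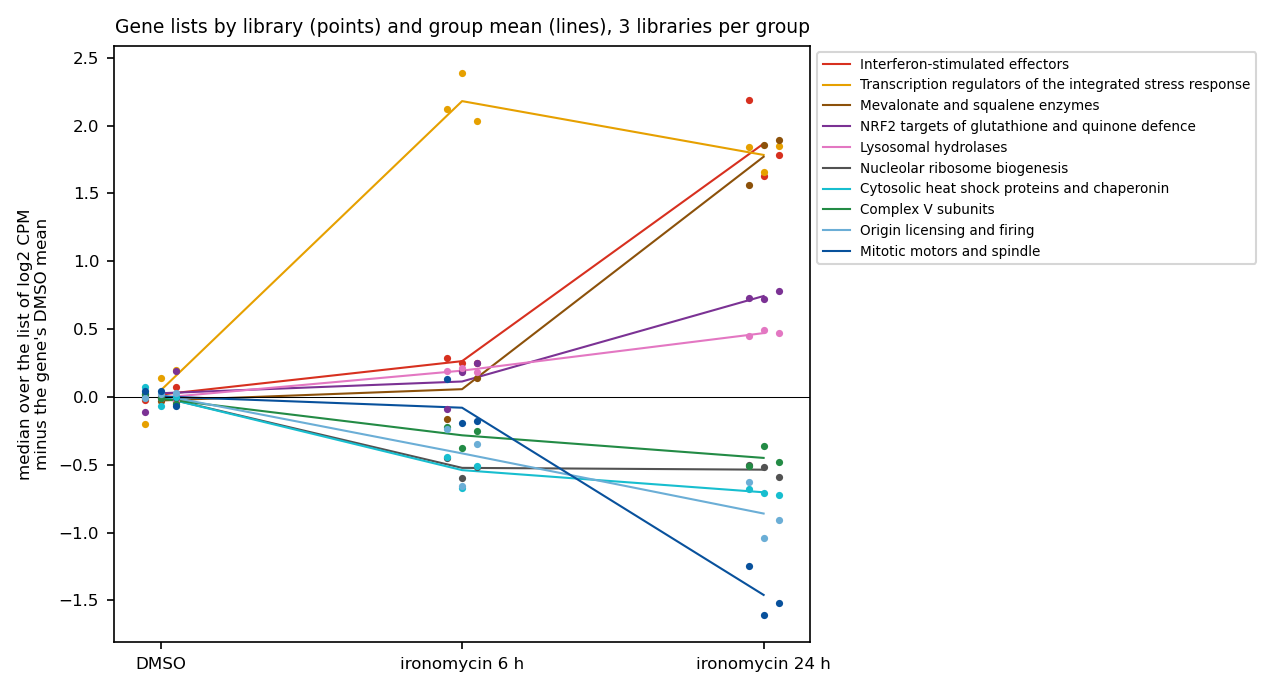
Median over each list's tested members of the log2 deviation from the DMSO mean (vertical) in each library at DMSO, 6 h and 24 h of ironomycin (horizontal), for 10 lists; points are libraries and the line joins the group means. The interferon and mevalonate lists are near the DMSO level at 6 h, with medians against DMSO of 0.33 and 0.08, and far above it at 24 h, the list of mitotic motors and spindle genes drops in the same interval, and the integrated stress response is at its higher level by 6 h.

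The response was also measured in HK2 knockout and PGP knockout cells, each against its own DMSO libraries. HK2 encodes a hexokinase and PGP a phosphoglycolate phosphatase. HK2 had 14.7 to 24.8 CPM over the 6 HK2 knockout libraries, against 36.4 to 69.5 CPM in wild type, and PGP had 53.2 to 83.6 CPM over the 6 PGP knockout libraries, against 72.9 to 95.5 CPM in wild type; a 3′ tag need not lie in the edited part of the gene. Of the 3465 genes called in wild type, 2573 were called in the same direction in HK2 knockout cells (74.3% of the wild type calls and 75.3% of the 3418 knockout calls). In PGP knockout cells 2737 were (79% and 74.8% of the 3661 knockout calls).

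The difference between responses was tested directly. No gene was called by edgeR in either interaction test, with 267 genes at an unadjusted p under 0.05 for HK2 knockout minus wild type and 221 for PGP knockout minus wild type, and DESeq2 called none, with 208 and 150. A miss does not show that the genotypes respond alike: the median SE of a difference was 0.24, and 95% of the differences of genes called in wild type lay between -0.94 and 0.75 for HK2 and between -0.79 and 0.73 for PGP. Interferon effectors had medians of 1.63 in HK2 knockout, 2.10 in PGP knockout and 2.10 in wild type cells. CCNB1 fell by 1.65, 1.79 and 2.21 on the log2 scale in the same order, and MSMO1, a sterol demethylase component, was at 2.62, 2.97 and 3.20.

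**Figure D5:**
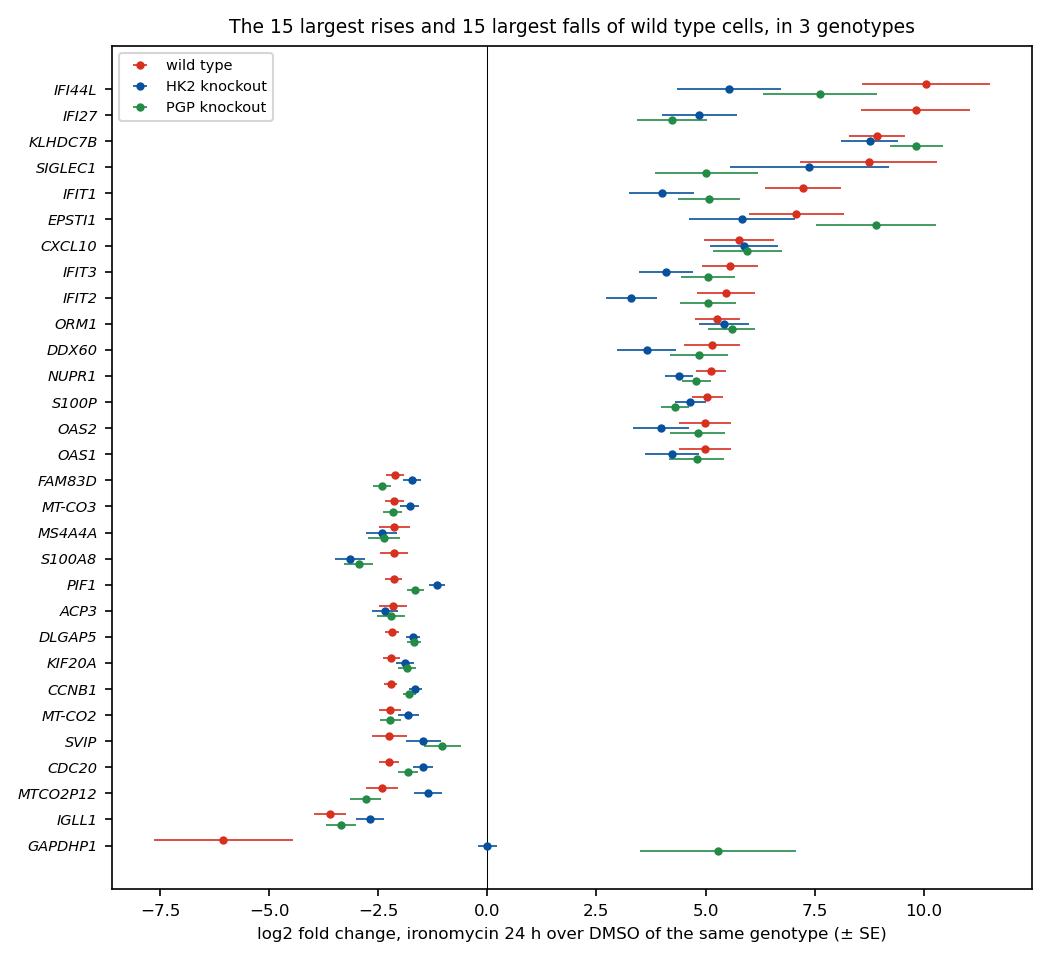
Log2 fold change of ironomycin 24 h over DMSO with its SE (horizontal) for the 15 largest rises and 15 largest falls of wild type cells (rows), in wild type, HK2 knockout and PGP knockout cells. The fitted values of IFI44L, IFI27, KLHDC7B, SIGLEC1, IFIT1, EPSTI1, CXCL10 and GAPDHP1 rest on few counts in 1 group and depend on the prior count; every gene shown but GAPDHP1 keeps its direction in all 3 genotypes.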

How the data were processed

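The deposited table holds whole-number counts per gene for 21 libraries. Per the labels' protocols RNA was isolated with Qiagen RNeasy and made into 3′ libraries with Lexogen QuantSeq. The submitters' processing notes name bcl2fastq 2.20.0.422, HISAT2, HTSeq and hg19. Whether counting used strand is not given in the sources used here. A gene's count is of its 3′ end, so levels do not depend on length, and copies with near-identical ends may share reads. Of 54042 gene IDs 51854 matched a symbol in GENCODE, and the other 2188 held 8 counts in all.

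Counts were fitted with edgeR 4.0.16 (R 4.3.3), by the quasi-likelihood test on group means of all 21 libraries after TMM scaling, for the 11610 genes kept by filterByExpr (minimum count 10, minimum total 15). The p-values were adjusted by Benjamini-Hochberg over those genes in each comparison. The steps were tested on simulated counts. DESeq2 1.42.0, RLE size factors, no filter, a replicate block, the compared groups alone and leaving out each library in turn were the alternatives.

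The 97 gene lists and their members were chosen with earlier results of these data known. Genes were chosen by size among called genes (15 in each direction over 5 CPM, without overlap, and the largest over 200 CPM), as up to 6 called members per list by adjusted p, and from a list of fixed genes. The text names only part of the genes so chosen. IFNAR1, IFNAR2, TK2, COX7A2L, MT-CO1, MT-ND5, MT-ND6, MT-TP, MT-TY, MT-RNR1 and MT-RNR2 were named after their values were seen. Promoter sequences are from RefSeq (GRCh38.p14); no coordinates were converted.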

Additional observations from a re-analysis of the deposited data

Results flagged for a closer look

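The wild type response differed between 24 h and 6 h of ironomycin in 1922 genes by edgeR's test of the difference. Among genes of at least 5 CPM whose libraries did not overlap, the 5 largest log2 differences upward were those of IFI44L (8.17, adjusted p = 9.6e-05), EPSTI1 (7.01, adjusted p = 1.3e-04), IFI27 (6.64, adjusted p = 3.1e-05), SIGLEC1 (6.08, adjusted p = 0.00158) and OAS1 (4.31, adjusted p = 9.0e-06), all interferon effectors. The first 4 had almost no counts at 6 h, so their fitted sizes depend on the prior count.

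The 5 largest downward were those of IGLL1 (-3.49, adjusted p = 5.5e-07), the DNA helicase PIF1 (-2.66, adjusted p = 4.4e-09), PLK1 (-2.23, adjusted p = 1.6e-08) and the mitochondrial transfer RNAs MT-TL1 (-2.18, adjusted p = 3.6e-07) and MT-TC (-2.18, adjusted p = 6.0e-06). MT-TC had 7.4, 10.9 and 8.94 CPM at 24 h and 33.1, 47.8 and 42.6 CPM at 6 h, and its reads may belong to an overlapping gene, since the counting is not stated to use strand. The pattern of MT-TL1 differed from that of PLK1: it was above DMSO at both times, while PLK1 was near DMSO at 6 h (40.1, 56.3 and 43.7 CPM).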

How the results depend on the processing

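The 3465 calls at 24 h against DMSO numbered 3462 with RLE size factors, 3320 without a filter, 3415 with DESeq2, 3968 with the compared groups alone, 3984 without the 6 h library that stood apart and 2787 to 3020 when 1 compared library was left out, and all shared calls kept their direction. The 1922 calls against 6 h numbered 749 with the compared groups alone and 1271 to 2220 when 1 library was left out; the cause was not tested. The 0 calls for the knockout differences became 17 for HK2 and 18 for PGP without a filter, and 1 for PGP with the compared groups alone. Myeloid lineage factors had 1 member higher and 0 lower, and 1 higher and 2 lower with the compared groups alone. Of 483 named genes called, 54 lost the call under at least 1 setting and 0 changed sign. Same-numbered libraries of the 2 groups deviated together with correlations of 0.166, 0.05 and 0.236. Each ironomycin library correlated best with the DMSO library of its own number. Among the DMSO libraries only replicate 2 did not, at 0.056 with ironomycin replicate 1 against 0.05 with its own number. The labels do not say what the numbers mark, so the main fit did not use them as pairs. With the replicate block 3944 genes were called against DMSO and 2514 against 6 h, and 0 for each knockout difference. Higher calls among large and small cytosolic ribosome proteins then numbered 11 and 10, against 6 and 4. Depth limits genes under 5 CPM, with a median SE of 0.44.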
